A study of Sus scrofa with 14 samples.

Results

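The mammary gland of the sow was compared between 7 days (PI7) and 2 days (PI2) of natural involution, as whole glands and apart as stromal nuclei. Single-nucleus RNA sequencing (snRNA-seq) counts unique molecular identifiers (UMIs), that is single captured RNA molecules, per gene in each nucleus. Members were chosen by their labels and by a count rule. All nuclei of the 2 PI7 and the 2 PI2 libraries with at least 300 detected genes were taken, which gave 48623 of the 127926 such nuclei in the 10 gland libraries. A stromal nucleus carried at least 2 UMIs over DCN, COL1A1 and COL1A2 (fibroblast matrix genes), PTPRB and MMRN1 (blood and lymphatic endothelium) and RGS5 (cells around small vessels) and no UMI of EPCAM, an adhesion molecule of epithelium. This rule kept 8850 of the 19798 stromal nuclei of all glands. UMIs were summed over the nuclei of each library, and the library, not the nucleus, was the replicate.

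The animals were multiparous sows in their second breeding cycle, untreated, on a common diet, and sampled at 1 of 5 stages. Besides PI2 and PI7 these were day 90 of gestation (G90) and days 0 (L0) and 20 (L20) of lactation, each with 2 libraries of snap-frozen tissue from separate sows. A stage was thus represented by 2 animals and by a single piece of gland from each. With 2 sows a stage, differences between stages can hardly be told from differences between individual animals, and the tests below have little power.

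Involution is the return of the milk-producing gland to its resting state once milk is no longer removed. Secretory epithelial cells stop making milk and die, neighbouring epithelial cells and macrophages engulf the remains, and proteases, new matrix and fat cells rebuild the tissue. Macrophages that take up much debris and lipid are known to switch on lysosomal enzymes and lipid-handling genes, and osteoclasts, the bone-resorbing cells of the same lineage, use many of the same genes.

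Libraries of PI2 and PI7 held 18873204 to 38917782 UMIs in 9400 to 16691 nuclei, with a median of 1644.5 to 1845 UMIs per nucleus. Pairs of libraries shared few cell barcodes, 0.55% to 1.23% of the smaller library. The libraries did not pair off by stage. Across the 22658 genes tested, PI2 replicate 1 had a Spearman correlation of 0.975 with PI7 replicate 2 but of 0.904 with PI2 replicate 2. PI7 replicate 1 was closest to L20 replicate 2 (0.976), and PI2 replicate 2 to L20 replicate 1 (0.967), while the 2 PI7 libraries reached 0.929. These correlations run across genes, which are no independent replicates. PI2 replicate 2 also had a stromal share of 2.16%, against 20.5% in PI2 replicate 1, and it alone among the 4 carried beta-casein RNA above the level of L20 replicate 1. Values without this library are given beside many results that it moved, but not beside all of them. Whether these libraries bear the right stage labels was not tested, and all folds below take the labels as given. Epithelium was seen in each of the 4 libraries, where the 14 measured luminal epithelial markers were all detected at a sum of 2001 to 3561 plain CPM. Milk protein genes summed to 2417 and 4620 plain CPM at PI2 and to 383 and 676 at PI7.

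Levels of genes are given as normalised CPM, that is UMIs per 1000000 after scaling with TMM factors, which equalise the bulk of genes between libraries. The sums over marker lists are plain CPM, without these factors. Folds are log2, PI7 minus PI2, with their standard error (SE), from a fit over all 10 glands. A gene is described as higher or lower at PI7 where both PI7 libraries lay above or below both PI2 libraries. No gene of the whole gland met an adjusted p under 0.05 with a log2 fold over 1 in edgeR's quasi-likelihood test (0 of 22658, 0.0%). At an unadjusted p under 0.05 with the same fold, 320 genes were higher and 142 lower. DESeq2 called 16 of the 16068 genes to which it gave an adjusted p (0.0996%), 11 of them higher and 5 lower. Both PI7 libraries lay above both PI2 libraries for 2542 genes (11.2%) and below them for 2747 (12.1%), and these shares are the background for the counts within lists. Scaling by total UMIs alone shifted the median log2 fold of all genes from 0.02 to 0.39, and the split became 4455 higher and 1417 lower. In whole-gland sums, fewer cells of a type and less RNA per cell cannot be told apart.

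Among genes with a symbol that were higher in the whole gland at PI7, the 10 with the lowest p were TREH, SIGLEC15, CPSF6, ATP6V0D2, ACP5, SLC37A2, DLK1, CTSS, CCR1 and TREM2. All but TREH, CPSF6 and DLK1 are known from osteoclasts or phagocytes, but no list of such genes was tested. ACP5, the tartrate-resistant acid phosphatase that marks osteoclasts (chr2:70206159-70209855 of Sscrofa11.1), measured 9.36 and 2.13 normalised CPM in the PI2 libraries and 326 and 88.4 in the PI7 libraries. ATP6V0D2, a subunit of the proton pump that acidifies lysosomes and the osteoclast's resorption space (chr4:50694188-50749373), measured 0.794 and 2.68 against 76.5 and 21.1. SIGLEC15, a sialic acid receptor of osteoclasts (chr1:95475108-95492675), measured 0.877 and 0.608 against 17.2 and 11.3. For all of them both PI7 libraries stood well clear of both PI2 libraries, with PI7 replicate 1 highest. The log2 folds were 5.17 ± 1.16 (SE, n = 2 libraries a stage) for ACP5, 4.83 ± 0.87 for ATP6V0D2 and 4.25 ± 0.72 for SIGLEC15. Their adjusted p-values in edgeR's quasi-likelihood test were 1.0, 0.96 and 0.78, and each was among the 16 genes called by DESeq2. Without PI2 replicate 2 the log2 folds were 4.46, 5.92 and 4.01.

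Several further genes of this kind lay in the same order. SPP1, osteopontin, a matrix-bound ligand made by activated macrophages, osteoclasts and secretory epithelium, measured 180 and 135 normalised CPM at PI2 and 1985 and 782 at PI7. MMP9, the gelatinase that cuts denatured collagen, measured 2.59 and 8.45 against 143 and 28.2. TREM2, a lipid receptor of phagocytes, measured 1.34 and 1.40 against 7.95 and 9.09. SLC37A2, a sugar-phosphate transporter of macrophages, was level within each stage, with 9.82 and 10.5 at PI2 and 53.1 and 43.7 at PI7. CCR1, a chemokine receptor of monocytes, measured 1.17 and 1.22 against 11 and 7.61. The log2 folds were 3.14 ± 0.88 for SPP1, 3.96 ± 1.14 for MMP9, 2.64 ± 0.67 for TREM2, 2.25 ± 0.52 for SLC37A2 and 2.96 ± 0.75 for CCR1, and DESeq2 called TREM2, SLC37A2 and CCR1.

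**Figure D1:**
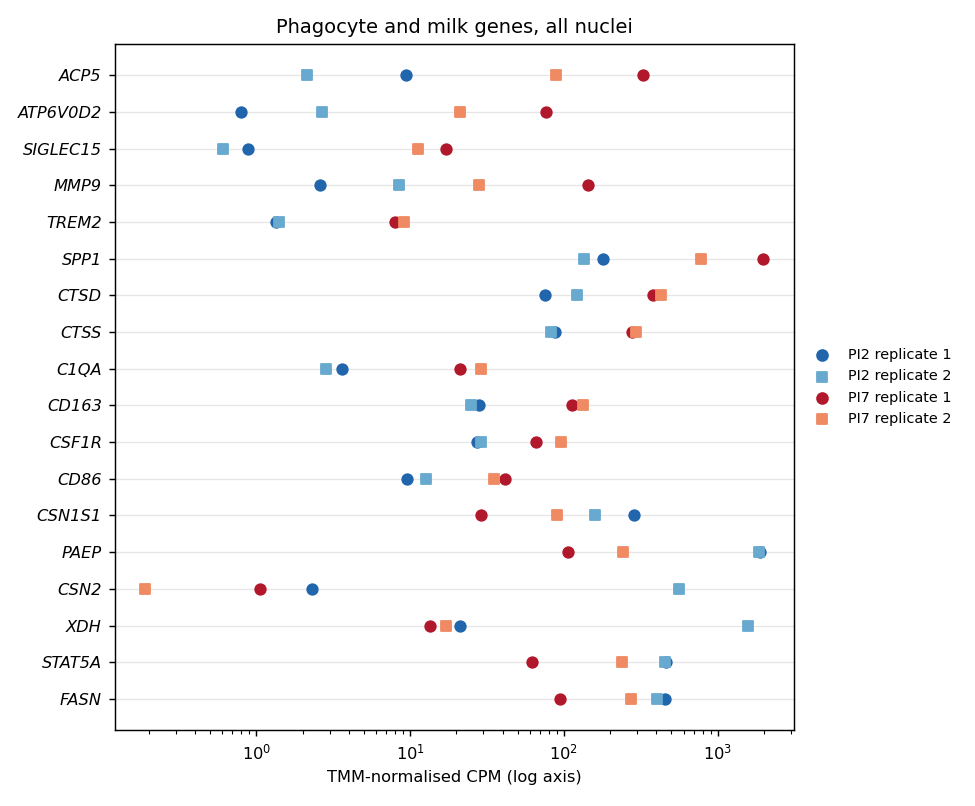
Normalised CPM (log axis) of phagocyte and milk genes in the whole gland, 1 point per library, blue for PI2 and red for PI7, circles for replicate 1 and squares for replicate 2. In the upper 12 genes both red points lie to the right of both blue points, and in the lower 6 to the left of them; CSN2 and XDH differ more between the PI2 libraries (2.3 and 561, 21 and 1585 normalised CPM) than PI2 replicate 1 differs from PI7.

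The UMIs of this osteoclast set were concentrated in few nuclei. ACP5, ATP6V0D2, SIGLEC15 and DCSTAMP (which drives fusion of osteoclasts and giant cells) were picked as a set after their values had been seen, so what follows is a description. At least 10 UMIs of the set were found in 256 of 16691 nuclei of PI7 replicate 1, a share of 1.53% (exact 95% interval 1.35% to 1.73%), and in 32 of 10076 nuclei of PI7 replicate 2, a share of 0.318% (0.217% to 0.448%). No nucleus of either PI2 library reached that number, which allows shares of up to 0.0241% and 0.0319% at 3 nuclei of the total (exact 95% upper bounds of 0.0296% and 0.0392%). These nuclei held 74.5% and 60.2% of the set's UMIs in the PI7 libraries. They also held 51.5% and 28.9% of all SPP1 UMIs and 72.9% and 61.3% of all MMP9 UMIs. The same nuclei held less of other genes, with 7.76% and 8.38% of TREM2 UMIs and 17.2% and 9.69% of CSF1R UMIs. Of the UMIs of the macrophage list these nuclei held 6.09% and 2.12%. At least 2 UMIs of the macrophage list were present in 80.5% and 93.8% of them, against 32.3% and 25.7% of all PI7 nuclei, but their median depth was 4430 and 4475 UMIs, against 1845 and 1773. Per UMI, the macrophage list was at 1194 and 1879 plain CPM in them and at 849 and 863 in the whole libraries. Elsewhere nuclei with this set were seen at L20, in 10 of 12927 and 27 of 15323 nuclei, and in 1 nucleus over the 4 libraries of G90 and L0. Intervals and limits of this kind cover counting error only.

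Low counts of the set were also found in luminal-rich and stromal nuclei. At least 2 UMIs were present in 9.15% of all nuclei of PI7 replicate 1, in 9.16% of its nuclei with at least 5 UMIs of luminal epithelial markers and in 9.06% of its stromal nuclei, at median depths of 1845, 3095.5 and 2189 UMIs. In PI7 replicate 2 the shares were 2.05%, 1.56% and 2.82%, at median depths of 1773, 2596.5 and 1733 UMIs. Luminal nuclei are not known to make these genes, but they were deeper, so equal shares do not place the other nuclei at background. The mean over all nuclei of a kind was 1.01 UMIs of the set in luminal-rich, 1.42 in all and 1.52 in stromal nuclei of replicate 1, and 0.235, 0.257 and 0.408 in those of replicate 2. Nuclei with at least 10 UMIs made up 1.06% of the luminal-rich and 1.26% of the stromal nuclei of replicate 1, against 1.53% of all, and 0.239% and 0.720% of those of replicate 2, against 0.318%. In the concentrated nuclei, luminal markers were at 727 and 714 plain CPM, below the 2001 and 2979 of the whole PI7 libraries, and lysosomal genes at 14051 and 16413. How far nuclei sharing a barcode or free RNA entered these counts was not tested.

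**Figure D2:**
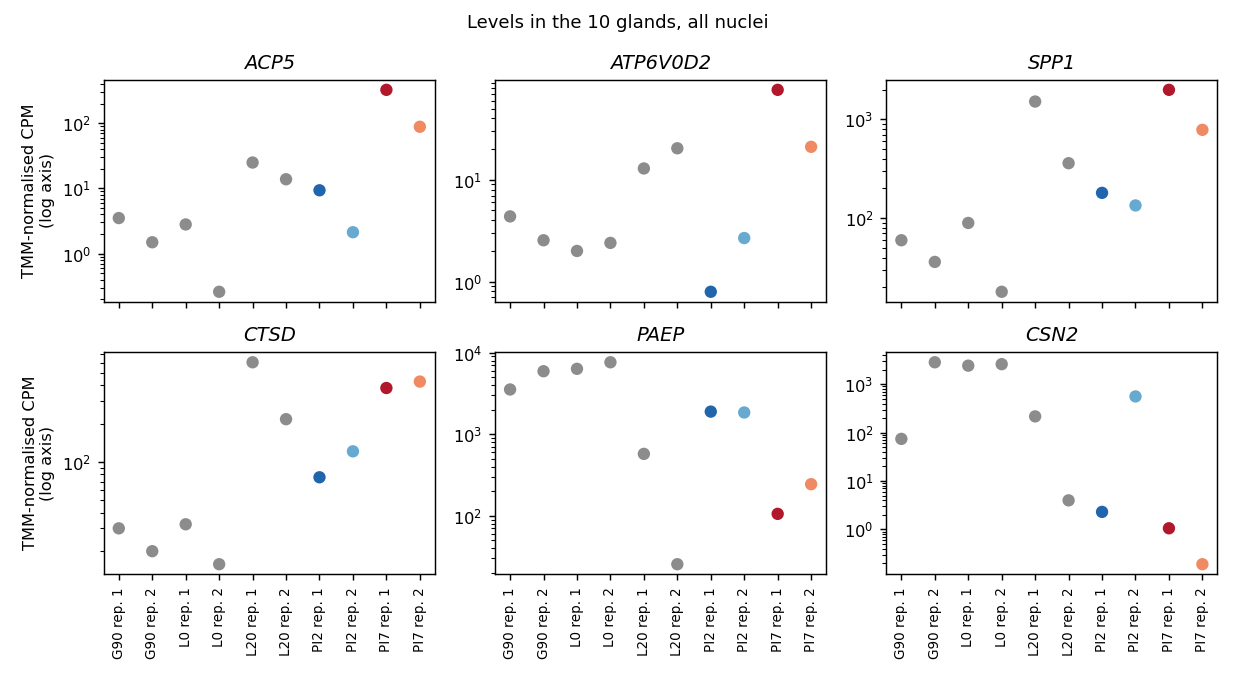
Normalised CPM (log axes) of 6 genes in all nuclei of the 10 glands, 1 point per library, grey for G90, L0 and L20, blue for PI2 and red for PI7. ACP5 and ATP6V0D2 are highest in the PI7 libraries, but ATP6V0D2 lies at 20.4 in L20 replicate 2 and at 21.1 in PI7 replicate 2. SPP1 and CTSD reach PI7 levels also in L20 replicate 1, and PAEP is highest in the libraries of G90 and L0. CSN2 lies at 561 in PI2 replicate 2 and at 2.30 or below in the other PI2 library and at PI7.

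TREH and CPSF6, with no known place in this set, were also among the lowest p-values and were called by DESeq2. TREH, which codes for the sugar-cleaving enzyme trehalase (chr9:45949891-45965372), measured 1.13 and 0.912 normalised CPM at PI2 and 11.7 and 24.0 at PI7, with a log2 fold of 4.12 ± 0.69. At L20 TREH measured 45.2 and 27.8, above both PI7 libraries. The concentrated nuclei held 61.5% and 44% of its UMIs at PI7. CPSF6, a subunit of the machinery that cuts the 3′ ends of transcripts (chr5:33525668-33559941), measured 5.06 and 1.76 against 99.2 and 104, with a log2 fold of 4.89 ± 0.83. At L20 CPSF6 measured 105 and 212, so that PI2 lay below both L20 and PI7. Only 3.28% and 3.43% of the CPSF6 UMIs at PI7 lay in the concentrated nuclei. The RefSeq gene next to CPSF6 at higher coordinates is LYZ, lysozyme, 52.7 kb away with no annotated gene between, and the gland files hold no row named LYZ. Whether reads of that neighbour were counted for CPSF6 was not tested. The 11 higher genes of DESeq2 also held ENSSSCG00000008769 and ENSSSCG00000034555, which have no symbol here. DLK1, a marker of progenitor cells, was high in 1 library only, with 1 UMI in each PI2 library and 22 and 582 UMIs at PI7.

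Most macrophage markers stood higher at PI7. Of the 13 macrophage markers tested, 9 were higher and 0 lower (background 11.2% and 12.1%), and none was called by edgeR. Their median log2 fold was 1.52, against 0.02 over all genes, and 1.55 without PI2 replicate 2. C1QA, a chain of the complement protein that coats dead cells, measured 3.59 and 2.86 normalised CPM at PI2 and 21.3 and 29.0 at PI7, with a log2 fold of 2.96 ± 0.80. CD68, a lysosomal membrane protein of macrophages, measured 6.02 and 2.92 against 30.6 and 29.3. CD163, the scavenger receptor for haemoglobin, measured 28.1 and 25.1 against 114 and 133. CSF1R, the receptor through which CSF1 and IL34 keep macrophages alive, measured 27.4 and 28.9 against 65.5 and 95.7, with a log2 fold of 1.52 ± 0.50. In none of these 4 did the stages overlap. The list summed to 397 and 275 plain CPM at PI2 and to 849 and 863 at PI7. MERTK, the engulfment receptor, was the most abundant marker and its libraries overlapped, but were higher at PI7 when scaled by total UMIs.

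Genes for digesting and handling what is engulfed were split. Of 19 lysosomal genes, 8 were higher and 1 lower, with a median log2 fold of 0.25 that became 0.63 without PI2 replicate 2. CTSD, the chief aspartic protease of lysosomes (chr2:1188548-1197642), measured 75.7 and 121 normalised CPM at PI2 and 381 and 429 at PI7, with a log2 fold of 2.04 ± 0.59. CTSS, a cysteine protease of antigen-presenting cells, measured 87.0 and 82.5 against 279 and 292, with a log2 fold of 1.75 ± 0.44 and an adjusted p of 1.0 in edgeR's quasi-likelihood test. For CTSS the libraries of a stage were close to each other, and for both genes the stages were clear of each other. LIPA, the lysosomal acid lipase, measured 35.6 and 15.4 against 72.8 and 73.3. Of 16 genes for uptake of dead cells and lipid handling, 9 were higher and 0 lower, with a median log2 fold of 1.26 that became 0.40 without PI2 replicate 2. CD36, a fatty acid and scavenger receptor, measured 66.9 and 53.2 against 187 and 203. ABCA1, which exports cholesterol, measured 275 and 41.1 against 300 and 505, so that its distance from PI2 replicate 1 was small. APOE, which carries lipid between cells, measured 232 and 9.79 against 236 and 311, with PI2 replicate 1 level with PI7 replicate 1.

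Many antigen presentation and T and NK lymphocyte genes also stood higher. Of 13 antigen-presentation genes, 9 were higher and 0 lower, with a median log2 fold of 1.05, or 1.24 without PI2 replicate 2. CD86, a costimulatory ligand for T cells, measured 9.61 and 12.6 normalised CPM at PI2 and 41.5 and 34.9 at PI7. CD74, the chaperone of class II molecules, measured 168 and 336 against 582 and 457, and SLA-DQB1, a class II chain, 57.2 and 23.2 against 156 and 141. B2M, the light chain of class I, overlapped with 250 and 941 against 605 and 583. Of 14 T and NK lymphocyte markers, 10 were higher and 0 lower, with a median log2 fold of 1.28, or 0.94 without PI2 replicate 2. NKG7, a granule protein of cytotoxic cells, measured 1.67 and 1.22 against 7.97 and 6.23, and CD4 measured 2.51 and 5.59 against 10.1 and 31.2. Of 9 B and plasma cell markers, BANK1 (38.0 and 47.1 against 117 and 128) and JCHAIN, which joins secretory antibodies (102 and 167 against 207 and 270), were higher and the others overlapped. The median log2 fold of that list was 0.39, and without PI2 replicate 2 it was 2.14 with 7 of 9 higher. None of the 5 neutrophil markers was higher or lower, with a median of -0.23, but without PI2 replicate 2 it was 3.27 with 4 of 5 higher. The neutrophil list summed to only 1.49 and 20.5 plain CPM at PI2 and 17.4 and 5.86 at PI7.

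Of 26 chemokines and cytokines, 12 were higher and 2 lower. The 2 lower ones act on neutrophils. CSF3, which drives their production, measured 40.1 and 54.2 normalised CPM at PI2 and 5.01 and 14.8 at PI7. CXCL2, which attracts them, measured 830 and 2949 against 208 and 811, so that PI2 replicate 1 lay just above PI7 replicate 2, and under total-UMI scaling its stages overlapped. Its log2 fold was -1.89, and -0.71 without PI2 replicate 2. Among the higher ones were CCL5, a T cell attractant, with 15.8 and 11.2 against 30.4 and 49.6, and IL1A, with 0.710 and 2.49 against 6.61 and 5.47.

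The share of nuclei that carried immune markers pointed the same way in the whole gland. With each nucleus thinned to 500 UMIs, at least 2 macrophage UMIs were found in 9.08% ± 1.26 of PI7 nuclei and 3.33% ± 0.66 of PI2 nuclei (SD, n = 2), and at least 2 T or NK lymphocyte UMIs in 8.17% ± 1.11 and 2.75% ± 0.87. For B and plasma cell markers the shares were 5.49% ± 1.31 and 1.79% ± 1.17. In each list both PI7 libraries were above both PI2 libraries, with p = 0.333 in the exact permutation test (two-sided), the smallest that 2 against 2 libraries allow. Unthinned, the macrophage share among luminal-rich nuclei was 14.6% and 11.9% at PI2 and 35.0% and 26.1% at PI7. It was about that of all nuclei (15.3%, 11.4%, 32.3% and 25.7%). The luminal-rich nuclei were deeper, with medians of 2379, 2246, 3095.5 and 2596.5 UMIs against 1741, 1644.5, 1845 and 1773. Whether the thinned shares count macrophages was not tested, and they are not read as such counts. The T and NK share was lower in luminal-rich nuclei, 11.2% and 8.17% at PI7 against 17.0% and 14.4% of all nuclei.

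**Figure D3:**
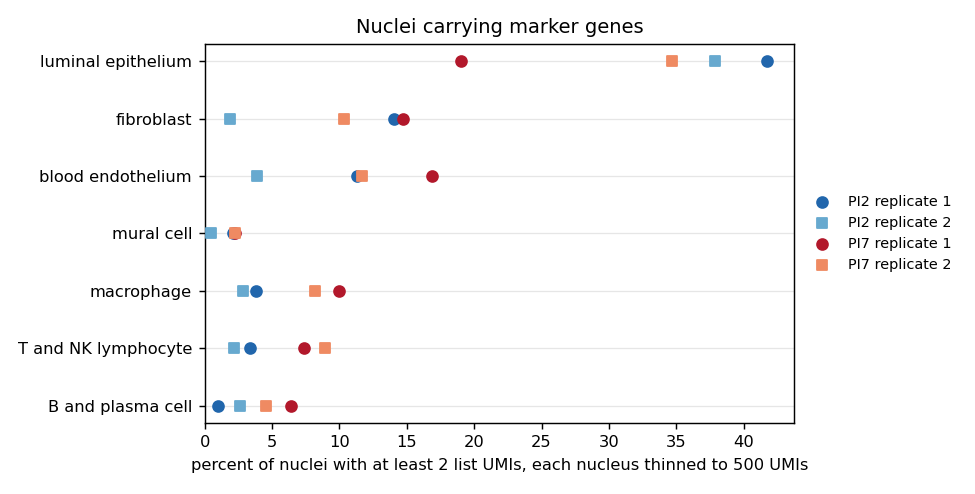
Percent of nuclei with at least 2 UMIs of each marker list after thinning to 500 UMIs, 1 point per library, blue for PI2 and red for PI7. Macrophage, T and NK and B and plasma cell shares are higher in both PI7 libraries, luminal shares are lower in both, and for fibroblasts PI2 replicate 2 lies apart at 1.86%.

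Several milk protein genes stood lower at PI7, but the PI2 libraries were unlike each other. Of 10 milk protein genes tested, 0 were higher and 5 lower, with a median log2 fold of -2.44 that became -0.47 without PI2 replicate 2. PAEP, beta-lactoglobulin, the main whey protein of the sow's milk, had the same level in both PI2 libraries, 1892 and 1846 normalised CPM, and 106 and 244 at PI7. Its log2 fold was -3.42 ± 1.08, and -3.44 without PI2 replicate 2. CSN1S1, alpha-S1-casein, measured 285 and 159 against 28.9 and 90.0. For PAEP neither PI2 library lay near PI7, while for CSN1S1 PI2 replicate 2 was less far from PI7 replicate 2.

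CSN2, beta-casein, measured 2.30 normalised CPM in PI2 replicate 1 and 561 in PI2 replicate 2, against 1.05 and 0.190 at PI7. XDH, xanthine oxidoreductase, which coats milk fat droplets, measured 21.0 and 1585 against 13.5 and 17.2. For both genes PI2 replicate 1 was of the order of the PI7 libraries and PI2 replicate 2 of that of L20 replicate 1. LALBA, alpha-lactalbumin, needed for lactose synthesis, had 0 and 1744 UMIs at PI2 and 25 and 0 at PI7, so its stages overlapped. At L20 the same split was seen, with CSN2 at 217 in replicate 1 and 3.98 in replicate 2. The log2 fold of CSN2 was -8.73 ± 2.72 in all libraries and -1.81 without PI2 replicate 2.

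Some other genes of the secretory programme were lower by smaller amounts. STAT5A, the transcription factor that carries the prolactin signal, measured 462 and 455 normalised CPM at PI2 and 62.1 and 237 at PI7, and STAT5B measured 1210 and 878 against 254 and 780. Of the 14 genes of this axis 1 was higher and 4 lower, and the higher one was AREG, an EGF receptor ligand, with 1.17 and 0.973 against 8.90 and 3.71. The median log2 fold of this list was -0.06, and without PI2 replicate 2 it was -0.54 with 2 higher and 10 lower. Of 16 milk fat genes, 1 was higher and 7 lower, with a median log2 fold of -0.47 with and without PI2 replicate 2. FASN, fatty acid synthase, measured 453 and 402 against 93.9 and 274, DGAT1, which completes triglycerides, 19.7 and 25.8 against 4.97 and 11.1, and FABP3, a fatty acid carrier, was the higher one with 7.77 and 10.7 against 15.8 and 27.9. Of 7 lactose and glucose genes 0 were higher and 3 lower, among them B4GALT1, the catalytic part of lactose synthase, with 210 and 395 against 95.7 and 185. The median log2 fold of this list was -1.11, and without PI2 replicate 2 it was -0.04 with 1 higher and 3 lower, while that of B4GALT1 went from -1.11 to -0.59.

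Luminal epithelial markers themselves showed a weaker form of the pattern. Of 14 tested, 0 were higher and 5 lower, with a median log2 fold of -0.41. Scaled by total UMIs, 0 were higher and 2 lower. As a sum the stages overlapped, with 3561 and 2838 plain CPM at PI2 and 2001 and 2979 at PI7. ELF3, an epithelial transcription factor, measured 38.1 and 296 normalised CPM at PI2 and 17.2 and 34.7 at PI7, and KRT7, a luminal keratin, 358 and 373 against 84.7 and 237. In both genes PI7 replicate 1 was the lowest library, and the log2 fold of ELF3 went from -2.69 to -0.56 without PI2 replicate 2. The thinned share of nuclei with luminal markers was 26.8% ± 11.07 at PI7 and 39.8% ± 2.73 at PI2 (SD, n = 2, p = 0.333, exact permutation test). Among the remaining genes with the lowest p, LRIG1, which restrains EGF receptors, measured 117 and 207 against 42.0 and 56.3, and PAPLN, a matrix protein, 109 and 39.8 against 13.4 and 14.5. USP54, a ubiquitin protease family member, measured 167 and 515 against 79.0 and 102, with a log2 fold of -1.91 that became -0.89 without PI2 replicate 2. TGM5, CHI3L2, CRISP3, IDI1 and LEP were lower mainly for PI2 replicate 2, with 253, 238, 114, 69.2 and 79.8 there and 1.71 to 15.5 in PI2 replicate 1. DESeq2 called CRISP3 and LEP among its 5 lower genes. Scaled by total UMIs, the stages overlapped for LEP, CRISP3 and STAT5B.

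Some vessel and mural markers lay higher in the whole gland. Of 11 blood endothelial markers, 5 were higher and 0 lower, with a median log2 fold of 0.94 that became 0.35 without PI2 replicate 2. PLVAP, which forms the diaphragms of capillary pores, measured 19.4 and 12.5 normalised CPM at PI2 and 42.2 and 36.6 at PI7, and VWF, a clotting factor stored in endothelium, 83.4 and 38.7 against 148 and 106. Of 8 mural cell markers, 4 were higher and 0 lower, with a median log2 fold of 0.69, or 0.71 without PI2 replicate 2. RGS5, which is also in the stromal rule, measured 7.81 and 3.34 against 24.2 and 27.1. Of 7 lymphatic endothelial markers, 1 was higher and the others overlapped, with a median log2 fold of 0.65 that became -0.06 without PI2 replicate 2. Of 22 genes of vessel growth and regression, 8 were higher and 1 lower, and the lower one was PGF, placental growth factor, with 34.6 and 112 against 12.7 and 22.8. Without PI2 replicate 2, 8 of the 22 were higher and 10 lower, the median log2 fold went from 0.13 to -0.16 and that of PGF from -2.05 to -0.97.

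Of 23 matrix proteases and inhibitors, 7 were higher, MMP9 first, and 2 lower, with a median log2 fold of 0.65 that became 0.12 without PI2 replicate 2. MMP11, a protease made beside epithelium in remodelling tissue, was a lower one with 168 and 152 against 38.2 and 125. TIMP3, an inhibitor bound to matrix, was the most abundant with 304 and 98.9 normalised CPM against 307 and 326, so its PI2 replicate 1 was level with PI7. Of 20 collagens in the whole gland, 4 were higher and 0 lower, with a median log2 fold of 0.25 that became -0.49 without PI2 replicate 2. The sum of fibroblast markers was 1393 and 227 plain CPM at PI2 and 1582 and 972 at PI7. Of 11 adipocyte markers, 3 were higher and 1, LEP, was lower, with a median log2 fold of 0.03 that became -0.40 without PI2 replicate 2. FABP4, the fatty acid carrier of fat cells, macrophages and capillaries, measured 17.0 and 14.5 against 42.9 and 51.8, and ADIPOQ, the hormone made by adipocytes alone, overlapped with 20.7 and 2.13 against 11.6 and 11.8.

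The stromal nuclei made up 20.5% and 2.16% of PI2 nuclei and 26.5% and 16.5% of PI7 nuclei. The mean was 21.5% ± 7.06 at PI7 and 11.3% ± 13 at PI2 (SD, n = 2), and the stages overlapped (p = 0.667, exact permutation test, two-sided). Without PI2 replicate 2 the difference of 10.2 percentage points became 1.04. With each nucleus thinned to 500 UMIs it was 4.23 points, and 6.03 points when KRT8, KRT18 and PTPRC had to be at 0 UMIs, with overlapping stages in both. The 203 stromal nuclei of PI2 replicate 2 held 457470 UMIs, fewer than the 3393900 to 10881117 of the other libraries. Fibroblast-led nuclei made up 58.6% and 62.6% of the stromal nuclei at PI2 and 48.2% and 52.2% at PI7, and vessel-led nuclei 32.5% in both PI2 libraries and 42.3% and 36.5% at PI7.

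The nuclei kept by the stromal rule also carried RNA of other cell types. The 8 fibroblast markers that the rule does not use summed to 2099 to 4346 plain CPM in stromal nuclei and to 71.4 to 404 in the remaining nuclei. Luminal markers were still at 1585 and 1065 at PI2 and 661 and 1099 at PI7, and milk proteins at 1271 and 2518 against 173 and 345, lower in both PI7 libraries. Macrophage markers were at 459 and 328 at PI2 and 781 and 913 at PI7, close to those in the remaining nuclei (383 and 273, 876 and 854). A UMI of PTPRC, the common leukocyte antigen, was found in 8.07% and 4.93% of stromal nuclei at PI2 and in 23.2% and 14.8% at PI7. Folds are therefore also given under a stricter rule, which in addition demanded 0 UMIs of KRT8, KRT18 and PTPRC.

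No gene of the stromal sums was called by edgeR (0 of 15354, 0.0%), where 323 genes were higher and 100 lower at an unadjusted p under 0.05 with the same fold. DESeq2 called 11 (0.0716%), all higher. Both PI7 libraries lay above both PI2 libraries for 2411 genes (15.7%) and below them for 2001 (13%), and under total-UMI scaling for 3011 and 1478. The 7 genes of the rule were not tested there.

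Among genes with a symbol that were higher in the stromal nuclei, the 10 with the lowest p were ATP6V0D2, TREH, CD83, CTSD, SLC37A2, CPSF6, ACP5, CD84, CST3 and ITGB2. ATP6V0D2 had 5 and 0 UMIs at PI2 and 1175 and 170 at PI7, or 1.02, 0, 97.4 and 47.0 normalised CPM. Its log2 fold was 6.33 ± 0.92 (adjusted p = 0.23 in edgeR's quasi-likelihood test), and 5.61 under the stricter rule. CTSD measured 88.9 and 78.4 against 483 and 552, with a log2 fold of 2.62 ± 0.52 that became 1.49 under the stricter rule. ACP5 measured 17.1 and 0 against 428 and 122, with a log2 fold of 4.60 ± 0.98 that became 3.03. The stricter rule thus left these genes higher and took away part of their size. CD83, a maturation marker of dendritic cells, CD84, a leukocyte adhesion receptor, ITGB2, the beta chain of leukocyte integrins, and CST3, a cathepsin inhibitor, were higher in the same way. CD83 measured 2.65 and 2.24 against 42.2 and 26.0, and CST3 43.4 and 42.6 against 290 and 189. TREH had 3 and 0 UMIs at PI2 and 158 and 205 at PI7, with a log2 fold of 5.96 ± 1.08 that became 4.75 under the stricter rule. CPSF6 measured 2.04 and 6.72 normalised CPM against 95.6 and 161, with a log2 fold of 5.40 ± 1.14 that became 3.96. Under that rule the log2 fold of CD83 went from 3.73 to 2.80, of CD84 from 3.18 to 2.16, of ITGB2 from 3.74 to 2.91, of CST3 from 2.48 to 1.85 and of SLC37A2 from 3.72 to 2.08. Of 13 macrophage markers 10 were higher and 0 lower in stromal nuclei, with a median log2 fold of 1.94, or 2.03 under the stricter rule. Their sum nevertheless fell under that rule. At PI2 it went from 459 and 328 plain CPM to 415 and 318, and at PI7 from 781 and 913 to 577 and 734. Of 19 lysosomal genes 12 were higher and 0 lower, with a median of 0.68, or 0.49 under the stricter rule.

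Many collagens and some fibroblast markers stood lower in stromal nuclei. Of 18 collagens tested, 0 were higher and 9 lower (background 15.7% and 13%), with a median log2 fold of -0.90 against 0.00 over all genes. Without PI2 replicate 2 the median was -0.37. Of 8 fibroblast markers outside the rule, 0 were higher and 3 lower, with a median of -0.86, or -0.32 without PI2 replicate 2. The 18 collagens outside the rule summed to 4902 and 8855 plain CPM at PI2 and 4474 and 4014 at PI7. Fibroblast-led nuclei were 58.6% and 62.6% of the stromal nuclei at PI2 and 48.2% and 52.2% at PI7. In stromal sums, fewer such nuclei and less RNA per nucleus cannot be told apart. In fibroblast-led nuclei alone, these collagens summed to 7178 and 11568 plain CPM at PI2 and 7017 and 5786 at PI7. There PI2 replicate 1 lay just above PI7 replicate 1. Of 24 other matrix proteins of the stroma, 3 were higher and 3 lower (12.5% each), with a median log2 fold of -0.50 that became 0.25 without PI2 replicate 2, and this list was not tested against the collagens. COL5A1, a regulator of fibril diameter, measured 364 and 354 normalised CPM at PI2 and 134 and 207 at PI7, with a log2 fold of -1.08 ± 0.38, or -1.11 without PI2 replicate 2. COL6A2, a chain of the beaded collagen around cells, measured 67.3 and 69.5 against 24.0 and 35.9. Outside the collagens, TNXB, a tenascin that binds fibrils, measured 203 and 197 against 82.4 and 102, and PCOLCE, which speeds the trimming of procollagen, 91.8 and 134 against 41.1 and 54.4. In these 4 the PI2 libraries were clear of PI7, and in all but PCOLCE they were close to each other.

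Others rested on PI2 replicate 2. PDGFRA, the growth factor receptor of fibroblasts and their progenitors, measured 157 and 596 normalised CPM at PI2 and 118 and 104 at PI7, with a log2 fold of -1.75 ± 0.57 that became -0.53 without PI2 replicate 2. IGFBP2, a carrier of insulin-like growth factors, measured 68.9 and 558 against 36.7 and 45.9, and ADGRD1, an adhesion receptor, 132 and 634 against 109 and 84.6. COL6A3 measured 602 and 1459 against 519 and 468. Their PI2 replicate 1 lay near PI7. ANK2, a membrane scaffold, measured 491 and 455 against 213 and 243 and did not depend on that library, with log2 folds of -1.05 ± 0.34 in all libraries and -1.12 without it. MMP23B, a membrane-anchored protease, measured 62.4 and 91.9 against 15.0 and 24.6. GFPT2, which feeds sugar into matrix glycans, measured 34.9 and 103 against 15.6 and 13.8. GLP1R, the receptor of a gut hormone, measured 47.5 and 20.2 against 6.72 and 9.40, but its PI2 replicate 2 rested on 9 UMIs. IL16, a lymphocyte attractant, measured 43.6 and 220 against 37.2 and 26.3, and its log2 fold was -0.48 without PI2 replicate 2. GRIFIN, a galectin-related gene, had 6 and 7 UMIs at PI2 and 1 in each PI7 library. The stromal sums of DCN, COL1A1, COL1A2 and the other rule genes served to choose the nuclei and are not compared.

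**Figure D4:**
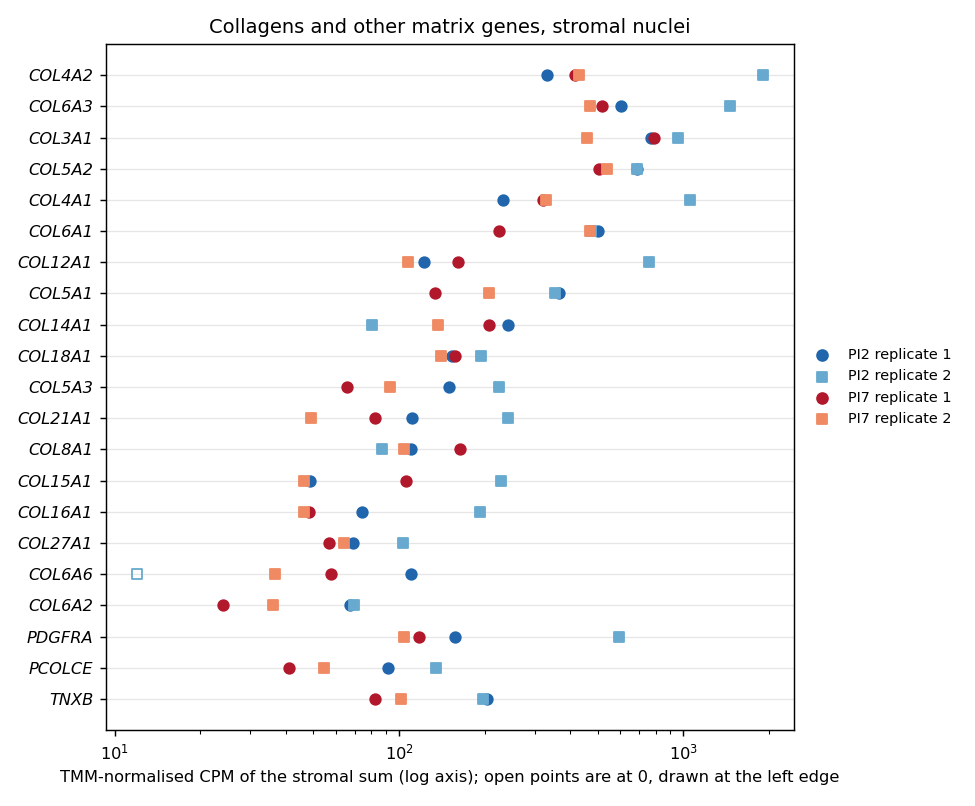
Normalised CPM of the stromal sums (log axis) for the collagens other than COL1A1 and COL1A2, and for PDGFRA, PCOLCE and TNXB, 1 point per library, blue for PI2 and red for PI7, with an open point for the library at 0. For COL5A1, COL6A2, PCOLCE and TNXB both blue points lie to the right of both red points, while for COL12A1, COL15A1 and PDGFRA the light blue square of PI2 replicate 2 lies apart from the other 3.

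The PI7 minus PI2 fold of the stromal nuclei was set against that of the remaining nuclei of the same libraries. The difference of folds was called for 0 of 22671 genes (0.0%) in edgeR's quasi-likelihood test with a term for each library, with 224 genes above and 262 below at an unadjusted p under 0.05 with a log2 difference over 1. DESeq2 was not run on this difference. Leaving out PI2 replicate 1 gave 393 calls, G90 replicate 1 121 and L20 replicate 1 122, and leaving out any other library gave 0 to 11. The difference was 0.34 for CTSD, -1.36 for COL5A1 and -1.67 for PDGFRA. Members of the milk protein list were lower in stromal nuclei too, 5 of 10 with 0 higher, at a median log2 fold of -2.15, or -0.30 without PI2 replicate 2.

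**Figure D5:**
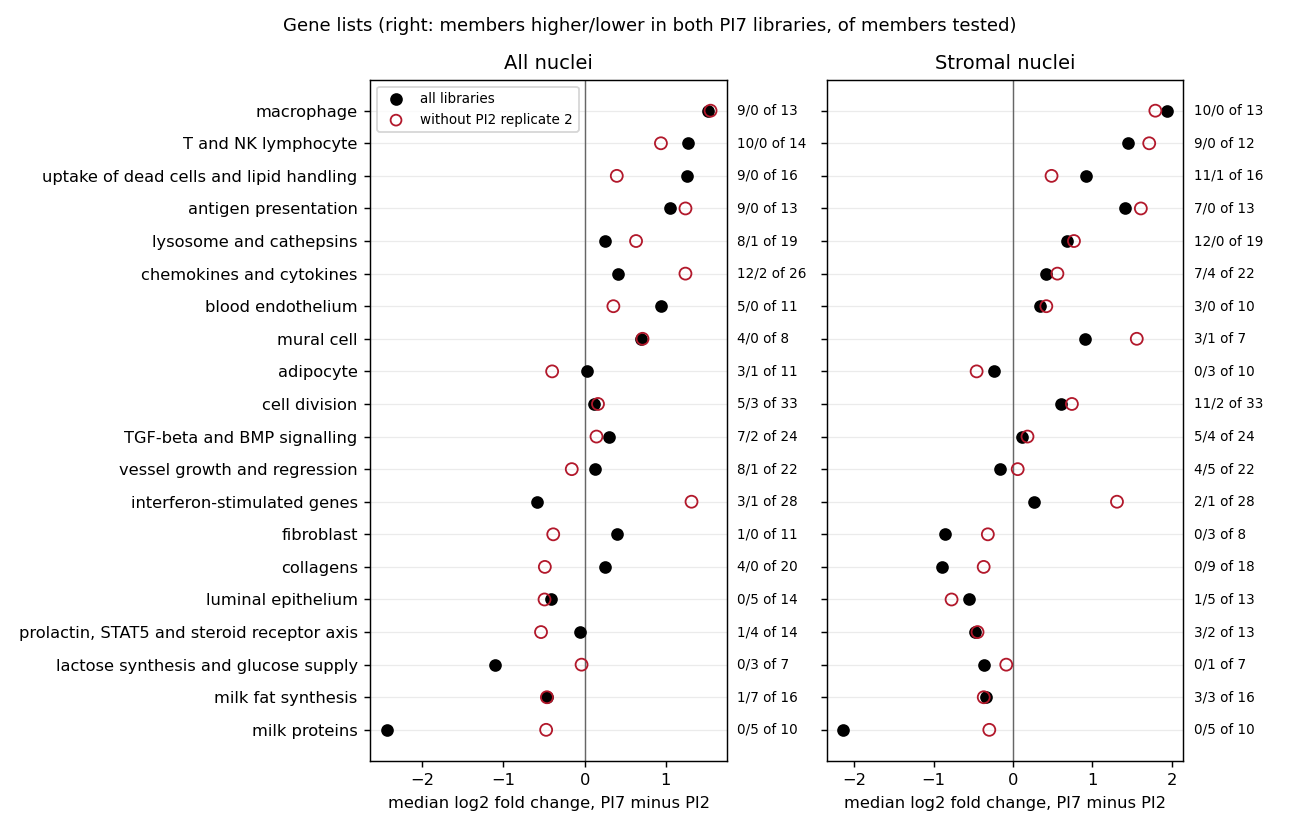
Median log2 fold, PI7 minus PI2, of the tested members of 20 gene lists in all nuclei (left) and stromal nuclei (right), with all libraries (black) and without PI2 replicate 2 (open red), and beside each row the members higher and lower at PI7 of those tested. Macrophage, T and NK and antigen-presentation lists lie above 0 with and without that library, and in all nuclei milk proteins move from -2.44 to -0.47 and interferon-stimulated genes from -0.59 to 1.32.

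Ligand and receptor genes picked from those that the study names for involution mostly overlapped between PI2 and PI7 in whole-gland sums. ACKR4, which the study also names for PI2, was not among those picked. The study draws most of these genes from predicted pairs between cell types and from cell subsets within a stage. It takes LPL from an inferred ordering of adipocytes over the stages. The study also compared adjacent stages within each cell type. Sums over all nuclei of a gland are another measure and do not test its statements. IL34, the epithelial ligand of CSF1R, measured 910 and 110 normalised CPM at PI2 and 197 and 631 at PI7, so that the replicates of a stage differed more than the stages, while its receptor CSF1R stood higher. TGFA (317 and 154 against 86.8 and 322) and its receptor EGFR (632 and 293 against 136 and 494) overlapped, as did ERBB4 (98.1 and 53.8 against 89.1 and 60.9). FGF1 measured 18.9 and 6.14 against 23.7 and 24.8 and IGFBP4 24.1 and 9.49 against 30.1 and 28.5, both higher with PI2 replicate 1 close to PI7, and LRP6 overlapped. BMPR1A and TGFBR3, receptors of BMP and TGF-beta ligands, and WWTR1, a transcriptional coactivator, overlapped. BMPR1B, a BMP receptor, was lower, with 302 and 250 against 126 and 241, unless scaled by total UMIs. PIK3R1, a regulatory subunit of PI3 kinase that takes part in involution, was lower, with 465 and 446 against 249 and 297 and a log2 fold of -0.74 ± 0.47. MAPK10, STK3, LPL and PDCD4 overlapped, and scaled by total UMIs STK3, LPL and LRP6 were higher.

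SOD2, NUPR1, CTSC and the summed interferon-stimulated genes were highest in PI2 replicate 2. SOD2, the mitochondrial superoxide dismutase induced by inflammation, measured 139 and 1167 normalised CPM at PI2 and 84.2 and 160 at PI7. NUPR1, a stress-response factor, measured 101 and 775 against 49.9 and 104, and CTSC, an activator of granule proteases, 77.8 and 611 against 103 and 140. These 3 overlapped between the stages. The 23 immediate early and heat shock genes, a list of stress-induced genes, did not stand apart there as a sum. They summed to 2588 and 2663 plain CPM at PI2 and 2751 and 3172 at PI7. Of the 23, 4 were higher and 2 lower. HSP90AA1, the most abundant, measured 881 and 692 normalised CPM against 265 and 755. Single members did stand apart in PI2 replicate 2, namely HSPA5 (23.6 and 372 against 38.6 and 34.4) and IER3 (10.3 and 70.7 against 7.35 and 6.23). Of 28 interferon-stimulated genes 3 were higher and 1 lower, with a median log2 fold of -0.59 in all libraries and 1.32 without PI2 replicate 2. The interferon list summed to 841 and 3867 plain CPM at PI2 and 1263 and 2156 at PI7. OAS2, a sensor of viral RNA, was the lower one with 139 and 725 against 45.4 and 102, and its log2 fold went from -2.55 to -0.92 without PI2 replicate 2. The 13 mitochondrially encoded genes summed to 1989 and 14904 plain CPM at PI2 and to 12590 and 4992 at PI7, with a median log2 fold of -0.49 that became 1.74 without PI2 replicate 2. Complement genes summed to 846 and 6167 against 3190 and 2468.

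Genes of cell division had small folds in the whole gland, where 5 of 33 were higher and 3 lower, with a median log2 fold of 0.12. CDK1, the kinase that starts mitosis, measured 7.27 and 11.4 normalised CPM at PI2 and 21.4 and 12.1 at PI7. The list summed to 678 and 560 plain CPM at PI2 and 978 and 691 at PI7. In stromal nuclei 11 of 33 were higher and 2 lower, with a median log2 fold of 0.60, or 0.64 under the stricter rule and 0.74 without PI2 replicate 2. The stromal sums nevertheless overlapped, with 619 and 503 plain CPM at PI2 and 884 and 603 at PI7. In PI2 replicate 2, 8 of the genes had 0 stromal UMIs. Of 13 apoptosis genes in the whole gland, 1 was higher, the death receptor FAS (7.48 and 17.3 against 21.1 and 23.4). Another 1 was lower, the caspase activator APAF1 (123 and 130 against 122 and 113). The log2 fold of APAF1 changed sign when scaled by total UMIs.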

How the data were processed

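UMI counts per gene and nucleus were deposited for each library. According to the methods and labels, the authors made GEXSCOPE libraries from isolated nuclei of frozen gland and counted with CeleScope on Sscrofa11.1; the deposited counts carry no normalization, with an annotation release that no source used here gives. The paper's further limit of 25% mitochondrial UMIs was an alternative. Counts were summed per library and tested with edgeR 4.0.16 (quasi-likelihood, TMM factors, filterByExpr, Benjamini-Hochberg adjustment) in R 4.3.3 over 10 glands and 5 stages; DESeq2 1.42.0 was an alternative. The same fit was also run on simulated data, with an outcome that is not reported here. Members and lists were chosen with earlier results of these data known. Named genes were drawn, per list, from the most abundant member and the 2 with the lowest p. Per comparison and direction, the 10 with the lowest p, a log2 fold over 1 and no overlap were added. So were 25 of the ligands, receptors and other genes that the study discusses, and the 7 genes of the stromal rule. APAF1, APOE, CCL5, CD163, CD74, COL5A1, COL6A2, COL6A3, COL12A1, CSF3, CSN1S1, DCSTAMP, FABP3, IL1A, KRT7, LALBA, LIPA, MMP11, PTPRC, SLA-DQB1, TNXB and XDH were named after their values were seen. The lower member of the lysosome list is not reported here. Of 647 listed genes 567 were found in the files. Coordinates are from RefSeq on the same build. Doublets and free RNA were not removed.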

Additional observations from a re-analysis of the deposited data

How the results depend on the processing

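With 2 libraries a stage, no gene was called in the whole gland under any alternative except DESeq2 (16 genes), a crossed replicate block in the 4 libraries of PI2 and PI7 that was added after seeing the data (17) and the unadjusted threshold (462). In stromal nuclei DESeq2 called 11, no filter on low counts 20 and the unadjusted threshold 423 genes, and leaving out single libraries gave 0 to 2. The difference between stromal and remaining nuclei was called for 4 genes with only 4 libraries, 3 without the filter and 486 at the unadjusted threshold, and for 0 to 393 when single libraries were left out; the cause was not tested. Leaving out 1 library moved the difference in stromal share over 1.04 to 19.4 percentage points. Under the replicate block 0 genes were called in either pool. The labels link libraries of different stages by a number only. Deviations of same-numbered libraries from their stage means correlated at -0.52 between PI2 and PI7 in all and -0.26 in stromal nuclei. Between PI7 and the other stages they correlated at -0.49 to 0.39 and -0.41 to 0.31. With 2 libraries a stage, the crossed pairing has the same values with the sign turned. Whether libraries of different stages share a factor was thus not tested. Of the 91 named genes whose stages did not overlap, 5 changed sign: APAF1 (0.30) under total-UMI scaling, and PCOLCE (0.28), PDGFRA (0.26), IL16 (0.26) and ADGRD1 (1.59) when only vessel-led stromal nuclei were summed. Genes sorted by stages that do not overlap can hardly change sign when 1 library is left out. The 5 of 91 therefore do not show how stable these genes are. HSP90AA1, HSPA5 and IER3 were left out of the counts of sign changes. KRT19, planned for the stricter stromal rule, was not used here. Of the 19 named genes whose stages overlapped, 16 changed sign under at least 1 alternative, among them CTSC (-1.51, and 0.63 without PI2 replicate 2) and IL34 (-0.30, and 1.92 without PI2 replicate 1). Stromal depth was lowest in L0 replicate 2 (136 nuclei) and, among the stages compared, in PI2 replicate 2 (203).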
